A study of Mus musculus with 6 samples.

Results

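The S100 calcium-binding protein genes of mouse chromosome 3 were examined as a family of 9 genes, *S100a1*, *S100a3*, *S100a4*, *S100a6*, *S100a8*, *S100a9*, *S100a10*, *S100a11* and *S100a13*. They were taken by gene symbol from a table of 38739 genes, of which 23049 had a value above 0 in at least 1 library, and all 9 members were among these. The measured cells were neutrophils from the peritoneum of cGAS knockout mice of the C57BL/6 strain (spelled C57B/L6 in the labels), kept in medium alone (untreated, 3 libraries) or with LPS from *E. coli* 026:B6 for 2 h (3 libraries). cGAS is the cytosolic DNA sensor of the STING pathway, LPS is a bacterial cell wall component sensed by TLR4, and both groups carried the cGAS deletion. No wild-type library was analysed here, so the values describe LPS in cGAS-/- cells alone.

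The study's methods describe male mice of 8 weeks whose neutrophils were drawn to the peritoneum by thioglycolate and collected 2 h later. The labels give an LPS dose of 500 ng/mL, whereas the study's methods state a lower one, and which applied to these libraries is not settled here. The labels do not say whether the 3 libraries of a group came from separate mice, so each p-value measures only the spread between these libraries. The deposited values, which their table names normalized counts, were taken here as TPM (a transcript abundance scaled for length and library size) rescaled by 1 factor per library. This was read from the values, they are called scaled TPM below, and the read depth is unknown. *Cgas* itself was at 0.180 to 0.307 scaled TPM in the untreated libraries and at 0.0286 to 0.184 in the LPS libraries.

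S100 proteins are small proteins with a pair of EF-hand calcium-binding motifs that mostly act as dimers and expose a binding surface when calcium rises. S100A8 and S100A9 pair to form calprotectin, which makes up a large part of the neutrophil cytosol, chelates zinc and manganese, and acts as a danger signal through TLR4 and RAGE when released. S100A10 and S100A11 bind annexins at membranes, and S100A4 and S100A6 act on the cytoskeleton and on growth signals.

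On GRCm39, 7 of the members lay within 187 kb of chromosome 3, from 90416091 (the first base of *S100a13*) to 90603071 (the last base of *S100a9*). *S100a11* (93414382 to 93435293, plus strand) and *S100a10* (93462213 to 93474510, plus strand) lay 2.81 Mb further along. *S100a8* (90567118 to 90578128, plus strand) and *S100a9* (90599931 to 90603071, minus strand) were neighbours with 21.8 kb between them. RefSeq promoter windows were found for 8 of the 9 members. *S100a11* was the member whose groups did not overlap, with lower LPS values, as for 9.75% of all genes. The 250 bases before the start are printed, 5′ to 3′ on the gene's strand, for both calprotectin genes and for *S100a11*. They come from RefSeq on GRCm38.p6, a different build from the gene positions above, at chr3:90668821-90669070 (plus strand), chr3:90695722-90695971 (minus strand) and chr3:93520246-93520495 (plus strand). Capitals mark matches to the searched motifs.
S100a8: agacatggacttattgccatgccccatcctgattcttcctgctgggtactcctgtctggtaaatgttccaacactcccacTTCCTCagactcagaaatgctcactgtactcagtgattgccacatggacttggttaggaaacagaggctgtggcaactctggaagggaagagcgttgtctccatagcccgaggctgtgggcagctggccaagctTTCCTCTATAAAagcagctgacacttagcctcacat
S100a9: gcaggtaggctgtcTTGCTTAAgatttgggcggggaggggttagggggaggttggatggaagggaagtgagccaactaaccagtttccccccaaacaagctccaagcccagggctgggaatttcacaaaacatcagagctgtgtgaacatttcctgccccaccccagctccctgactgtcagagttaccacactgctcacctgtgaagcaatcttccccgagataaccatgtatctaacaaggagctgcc
S100a11: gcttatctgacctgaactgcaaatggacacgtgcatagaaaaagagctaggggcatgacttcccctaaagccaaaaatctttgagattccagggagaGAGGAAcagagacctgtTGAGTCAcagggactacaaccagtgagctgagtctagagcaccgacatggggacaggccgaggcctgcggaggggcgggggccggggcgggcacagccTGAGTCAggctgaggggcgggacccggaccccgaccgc
Both strands of each window were searched for TATAAA (the TATA box), TTGCNNAA (C/EBP), GAGGAA (PU.1, which reads TTCCTC on the other strand), TGANTCA (AP-1) and the NF-κB motif. Positions are counted back from the RefSeq start. The *S100a8* window held TATAAA at -30 with a PU.1 match directly before it at -36, and another PU.1 match at -170. The *S100a9* window held a C/EBP match at -236 and no TATAAA. The *S100a11* window held AP-1 matches at -136 and -38 and a PU.1 match at -153. Over all 32851 windows, TATAAA was found in 12.4%, the C/EBP letters in 9.56%, the PU.1 letters in 23.3%, the AP-1 letters in 6.75% and the NF-κB motif in 0.98%. No member's window held the NF-κB motif. A match is a description of the letters alone.

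The members spanned from near 0 to the most abundant protein-coding transcripts of the table. Only 4 members had a mean of at least 100 scaled TPM, namely *S100a9*, *S100a8*, *S100a11* and *S100a6*, and in every library they made up 99.3% to 99.9% of the members' summed value. *S100a9* ranked first among protein-coding genes in 5 libraries and second in untreated 1. *S100a8* ranked between 2 and 10. *S100a11* ranked between 4 and 7 in the untreated libraries and at 12 or 13 in the LPS libraries. The values were read, from 1 library, as averages over a gene's transcripts, and levels of different genes would then also depend on how many transcripts each has. Multiplying by the number of annotated transcripts exchanged only *S100a4* and *S100a13* in the order.

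**Figure D1:**
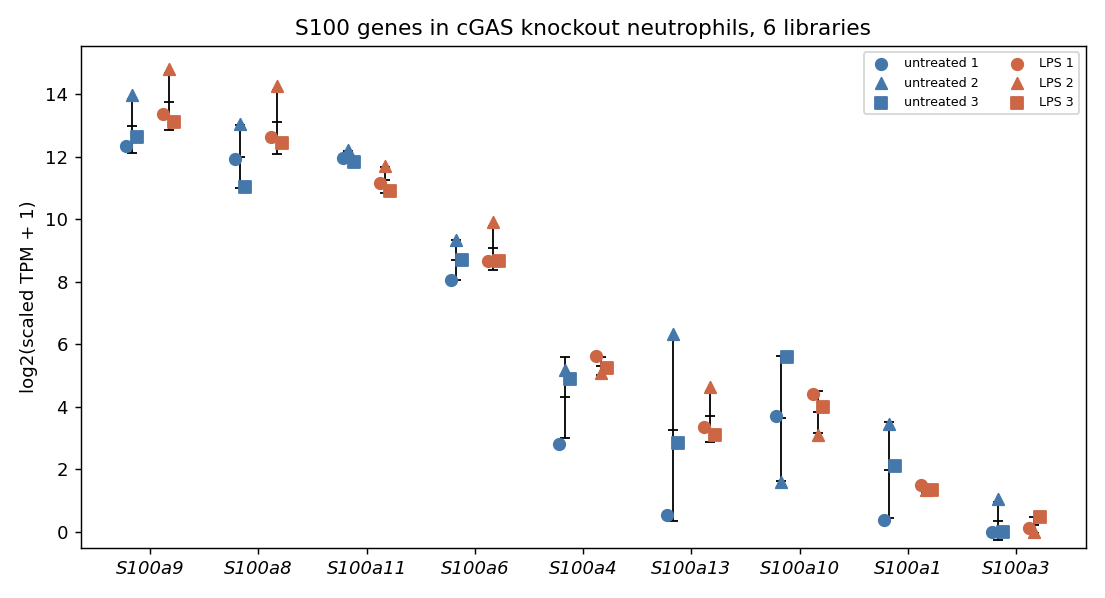
Level of each S100 member as log2(scaled TPM + 1) in the 3 untreated and 3 LPS libraries, 1 point per library, with bars for the group mean and SD. *S100a9*, *S100a8* and *S100a11* lie far above the other members, and for *S100a11* all LPS points lie under all untreated points.

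After LPS, no member passed the limits of the study (p below 0.01 before adjustment, and a log2 change larger than 2 in size). The groups separated for 1 member, *S100a11*, with lower LPS values, as they did for 9.75% of all genes. With limma, 0 of the 9 members were called higher, against 1.69% of all 23049 genes, and 0 were called lower, against 1.31%. No member had an adjusted p under 0.05, against 0.894% of genes higher and 0.946% lower, and 0 members had an unadjusted p under 0.05, against 10.3% of all genes higher and 6.66% lower. The groups did not overlap for 1 member with lower LPS values, against 9.75% of all genes, and for 0 members with higher LPS values, against 13.1%. Among 5894 protein-coding genes with a mean of at least 1, the shares without overlap were 9.89% lower and 24.6% higher. The log2 fold change was above 0 for 6 members and below 0 for 3, against 52.9% of all genes and 64.9% of those protein-coding genes above 0. For 2 of the 6, *S100a10* and *S100a13*, the mean scaled TPM was lower with LPS, so the sign depends on the log scale. The members' median was 0.39, beside 0.01 over all genes tested and 0.37 over those protein-coding genes.

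*S100a9*, the calprotectin subunit that carries the longer C-terminal tail, had 5233, 16151 and 6297 scaled TPM in untreated libraries 1 to 3. After LPS it had 10651, 28393 and 8899. The groups overlapped, and the library numbered 2 was the highest of each group. The log2 fold change on the log2(value + 1) scale was 0.78 (SE 0.64, 95% interval -0.77 to 2.33, limma adjusted p = 0.551). *S100a8*, its partner subunit, had 3909, 8405 and 2086 without LPS and 6300, 19851 and 5536 with it. Here too the groups overlapped and both libraries numbered 2 were highest. Its log2 fold change was 1.11 (SE 0.71, 95% interval -0.62 to 2.85, limma adjusted p = 0.494). These intervals include both 0 and a change of over 2 on the log2 scale.

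Within each library the ratio of both calprotectin genes does not depend on the factor of the library. If values are averages over a gene's transcripts, the level of the ratio also depends on the transcript numbers. The annotation holds 20 for *S100a9* and 12 for *S100a8*. The ratio of *S100a9* to *S100a8* was 1.34, 1.92 and 3.02 in the untreated libraries and 1.69, 1.43 and 1.61 after LPS. All LPS ratios lay within the untreated range. The difference of the mean log2 ratio was -0.33 (two-sided exact permutation test, p = 0.5, 3 against 3 libraries, where the smallest possible p is 0.1). Leaving out 1 library moved it to between -0.62 (without untreated 1) and -0.029 (without untreated 3). Together both genes made up 68.2%, 81.6% and 66.7% of the members' summed value in untreated libraries 1 to 3, and 86.0%, 91.7% and 85.9% after LPS. Most of the rest of that sum was *S100a11*, whose values were lower with LPS, so this share also depends on that gene. Of the protein-coding value, both genes made up 6.11%, 13.2% and 5.89% without LPS and 8.37%, 17.6% and 7.09% with it. On that denominator the groups overlapped.

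*S100a11*, which binds annexin A1 and acts in membrane repair and keratinocyte growth control, was the only member whose groups did not overlap. It had 3986, 4769 and 3689 scaled TPM without LPS (4148 ± 558, SD, n = 3) and 2271, 3352 and 1898 with LPS (2507 ± 755, SD, n = 3). Every LPS library was below every untreated library, as for 9.75% of all genes. Its log2 fold change was -0.76 (SE 0.32, 95% interval -1.55 to 0.03, limma adjusted p = 0.314), which did not pass the test. Quantile normalization brought it to -0.17 (limma adjusted p = 0.760).

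The protein-coding genes analysed here took 21.0% to 28.3% of the table's summed value in the untreated libraries and 49.7% to 58.9% in the LPS libraries. Scaling each library to the same protein-coding total moved the log2 fold change of *S100a11* to -1.26 (SE 0.24, 95% interval -1.86 to -0.67, limma adjusted p = 0.0657). The groups still did not overlap. At this scaling 1 member, *S100a11*, was lower at an unadjusted p under 0.05, against 9.44% of all genes lower and 6.57% higher, and 0 were called, 4 log2 fold changes were above 0 and 5 below, and the members' median was -0.11 beside -0.04 over all genes and 0.01 over the protein-coding genes with a mean of at least 1. Over all genes, 43.9% were above 0 at this scaling, and 50.6% of the 5894 protein-coding genes. The shares called were 0.954% higher and 2.26% lower, and at an adjusted p under 0.05 they were 0.521% and 1.69%, with 0 members among them. Lower LPS values without overlap, as for *S100a11*, were then found for 13.9% of all genes and 15.7% of the protein-coding genes, and higher ones for 8.6% and 14.2%. The scaling also moved the calls over all genes from 389 higher and 301 lower to 220 higher and 522 lower.

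As a share of the protein-coding value, *S100a11* made up 2.66%, 2.55% and 2.59% in the untreated libraries and 1.12%, 1.22% and 0.933% in the LPS libraries. These groups did not overlap, and no test is given because the gene was singled out for its separation in the same libraries. As a share of the whole table, it made up 0.559%, 0.724% and 0.611% without LPS and 0.557%, 0.719% and 0.469% with LPS. On that denominator the groups overlapped. Which denominator is nearer to the RNA content of a cell was not tested.

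**Figure D2:**
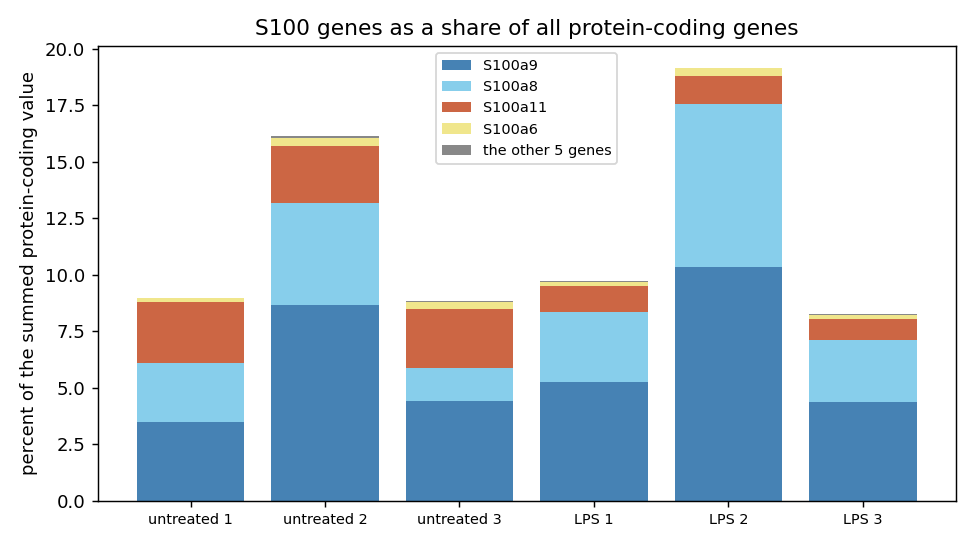
Percent of the summed protein-coding value taken by the S100 members in each of the 6 libraries. The summed share is highest in the library numbered 2 of each group, 16.1% and 19.2%, and the *S100a11* share is lower in all LPS libraries.

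All 9 members together made up 8.96%, 16.1% and 8.83% of the protein-coding value in the untreated libraries and 9.73%, 19.2% and 8.26% after LPS. The groups overlapped, and the means of 11.3% ± 4.17 and 12.4% ± 5.91 (SD, n = 3 each) differed by less than the spread within a group (exact permutation test, p = 0.7).

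Ratios of *S100a11* to the other abundant members were computed after their values had been seen. The levels of these ratios would likewise depend on the transcript numbers, with 7 annotated for *S100a11* and 15 for *S100a6*. The *S100a11* to *S100a9* ratio was 0.762, 0.295 and 0.586 without LPS and 0.213, 0.118 and 0.213 with LPS, a mean fold of 0.344. The *S100a11* to *S100a8* ratio was 1.02, 0.567 and 1.77 without LPS and 0.360, 0.169 and 0.343 with it, a mean fold of 0.273. The *S100a11* to *S100a6* ratio was 15.0, 7.41 and 8.99 without LPS and 5.60, 3.49 and 4.65 with it, a mean fold of 0.450. In all 3 ratios every LPS library lay below every untreated library. They are a description with no test, since *S100a11* was chosen for its values in these libraries. The *S100a6* to *S100a9* ratio overlapped between the groups, at 0.0399 to 0.0652 without LPS and 0.0338 to 0.0458 with LPS.

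**Figure D3:**
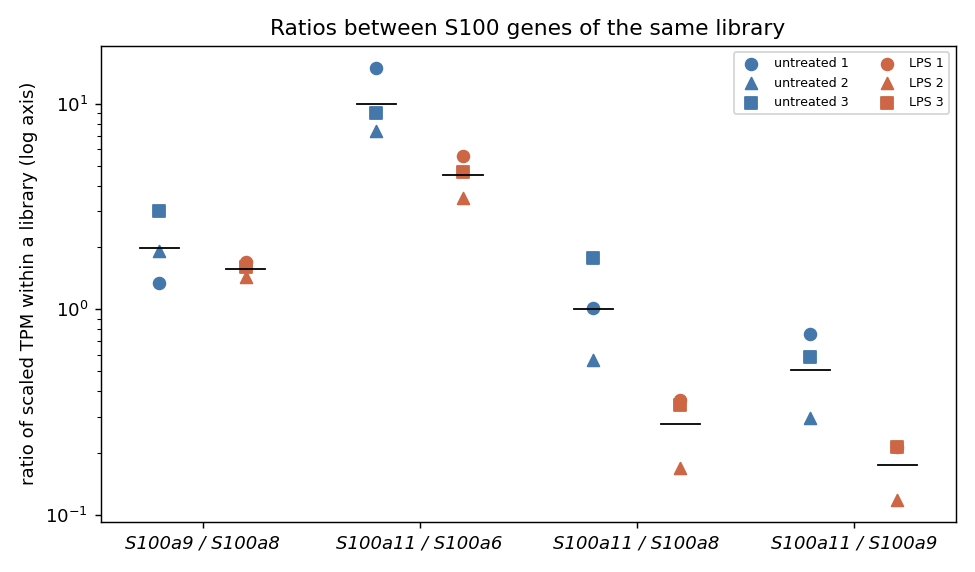
Ratios between abundant S100 members within each library (log axis), 1 point per library, with short lines for the geometric mean of each group. The 3 *S100a11* ratios are lower in every LPS library, while the *S100a9* to *S100a8* ratio overlaps between the groups.

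*S100a6*, calcyclin, had 265, 644 and 410 scaled TPM without LPS and 405, 960 and 408 with LPS. The groups overlapped and the library numbered 2 was again the highest of each group. The log2 fold change was 0.39 (SE 0.51, 95% interval -0.85 to 1.63, limma adjusted p = 0.683), and it was -0.11 at the same protein-coding total. *S100a4*, a binding partner of non-muscle myosin, had 6.07, 35.7 and 28.6 without LPS and 48.2, 32.6 and 36.7 with it. Untreated 1 stood low and the other 5 libraries lay between 28.6 and 48.2. The log2 fold change was 1.01 (SE 0.67, 95% interval -0.62 to 2.63, limma adjusted p = 0.511).

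*S100a10*, the light chain of the annexin A2 tetramer, had 12.1, 2.06 and 47.1 without LPS and 20.4, 7.56 and 15.1 with LPS. In contrast to *S100a8* and *S100a9*, its lowest value in each group was in the library numbered 2. The log2 fold change was 0.20 (SE 1.02, 95% interval -2.27 to 2.68, limma adjusted p = 0.926), and -0.26 at the same protein-coding total. *S100a13*, which takes part in the unconventional release of fibroblast growth factor 1, had 0.471, 80.4 and 6.23 without LPS and 9.32, 23.9 and 7.65 with LPS. Its untreated values alone spanned the LPS values on both sides. The log2 fold change was 0.45 (SE 1.44, 95% interval -3.06 to 3.96, limma adjusted p = 0.877).

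*S100a1*, known as a regulator of calcium handling in muscle, had 0.310, 9.90 and 3.31 without LPS and 1.81, 1.53 and 1.51 with LPS. The LPS libraries lay close together inside the untreated range. Its log2 fold change was -0.59 (SE 0.77, limma adjusted p = 0.682). *S100a3*, a hair cuticle protein, was listed at 0 in 3 libraries and reached at most 1.06, in untreated 2. It was the only member not above 0 in all 6 libraries.

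**Figure D4:**
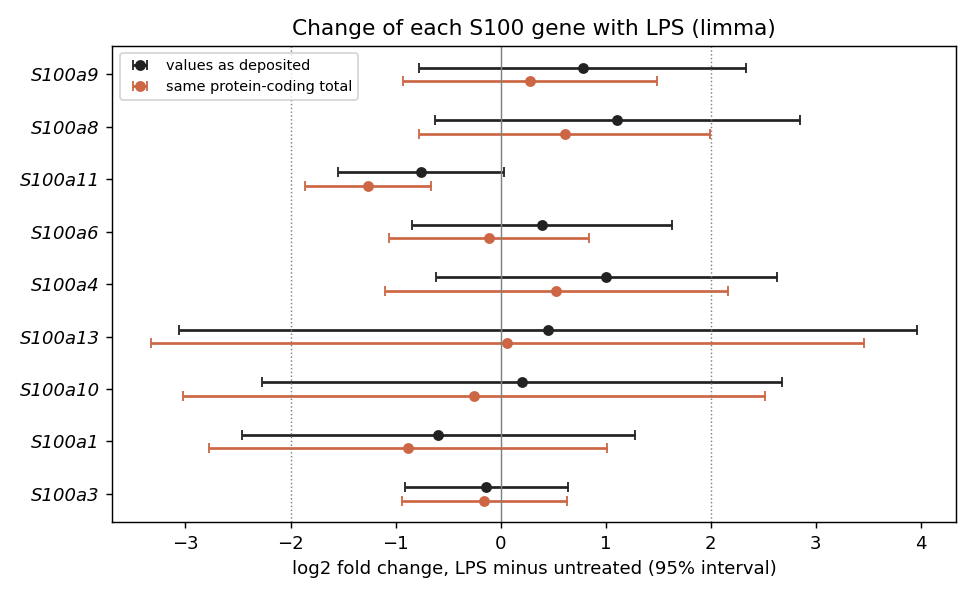
Log2 fold change (LPS against untreated) of each member with its 95% interval, for the values as deposited and for values scaled to the same protein-coding total. The interval of *S100a11* runs from -1.55 to 0.03 as deposited and from -1.86 to -0.67 after scaling, and the intervals of the other 8 members include 0 as deposited.

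Several members share sequence or position with other genes, and how the counting split such reads was not tested. *S100a1* lies inside *S100a13* on the opposite strand and shares 2449 bases with it. *S100a11* has a near-identical pseudogene, *Gm12854* (98.99% over 297 bases), at 0 to 15.5 scaled TPM, against at least 1898 for *S100a11*. Other near-identical copies, *Gm57150* and *Gm7665*, were not analysed here. *S100a4* shares 306 bases with *Gm42674*, listed at 0 in all 6 libraries, and *S100a3* shares 153 bases with *S100a2*. *S100a10* shares stretches of 163 to 178 bases, at 95.1% to 96.5% identity, with 6 other genes, *Dnajc14*, *Ggnbp1*, *Gm32574*, *Gm40067*, *Tfcp2* and *Topbp1*. *S100a8*, *S100a9* and *S100a6* had no stretch of at least 150 bases at 95% identity or more in another gene.

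The labelled cell type was checked against marker lists, and markers of several cell types differed between libraries. Of 13 neutrophil markers, 11 were in the table and tested, and *Ly6g* and *Retnlg* were not analysed here. Their summed value was 777, 3987 and 1338 scaled TPM without LPS and 1339, 6528 and 1684 with LPS, highest in the library numbered 2 of each group, as for *S100a8* and *S100a9*. *Lcn2*, lipocalin-2, took most of this sum after LPS, at 77.0, 1284 and 94.7 without LPS and 879, 4887 and 1190 with it. Without *Lcn2* the other 10 markers summed to 700.5, 2703 and 1243 without LPS and to 460, 1641 and 494 with LPS, again highest in the libraries numbered 2. Of the 11 markers, 6 had a log2 fold change below 0, and the median was -0.50. Lower LPS values without overlap were found for 3 (*Csf3r*, *Cxcr2* and *Ltf*), against 9.75% of all genes. Higher ones were found for 0, against 13.1%. *Cxcr2* was called lower. The summed value of 4 B cell markers was 542, 142 and 406 without LPS and 236, 66.7 and 223 with it. The 8 macrophage markers in the table summed to 165 to 195 without LPS and to 267 to 416 with LPS. *Cd68* took most of this sum, at 179, 157 and 162 without LPS and 303, 381 and 230 with it. Of the 8, 7 had a log2 fold change above 0, and *C1qb* was called higher. *Mrc1* went the other way without overlap, at 1.17 to 2.50 without LPS and 0.611 to 1.01 with it. In bulk samples, fewer cells of a type and less RNA per cell cannot be told apart.

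The 3 red cell markers summed to 16.3 to 1708 without LPS and 90.1 to 2546 with LPS, lowest in the library numbered 2 of each group. The 4 platelet markers summed to 1.67 to 8.85 without LPS and 4.72 to 32.0 with LPS. *Pf4* took most of the platelet sum with LPS, at 4.17 to 30.4. Of these 4, 3 had a log2 fold change above 0. *Itga2b* was lower without overlap, at 0.760 to 1.11 without LPS and 0.0930 to 0.350 with it. The 4 T cell markers summed to 12.0 to 15.3 without LPS and 5.04 to 11.4 with it. The 3 NK cell markers reached at most 1.75 in any library and the 6 fibroblast or mesothelial markers at most 2.97. For mast cells only *Cpa3* of 5 markers was in the table, at 1.10 to 40.1. For eosinophils 3 of 4 were, with *Epx* at 0 in all libraries and a sum of at most 0.962. The part of these differences in the values of *S100a8*, *S100a9* and *S100a11* was not tested.

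**Figure D5:**
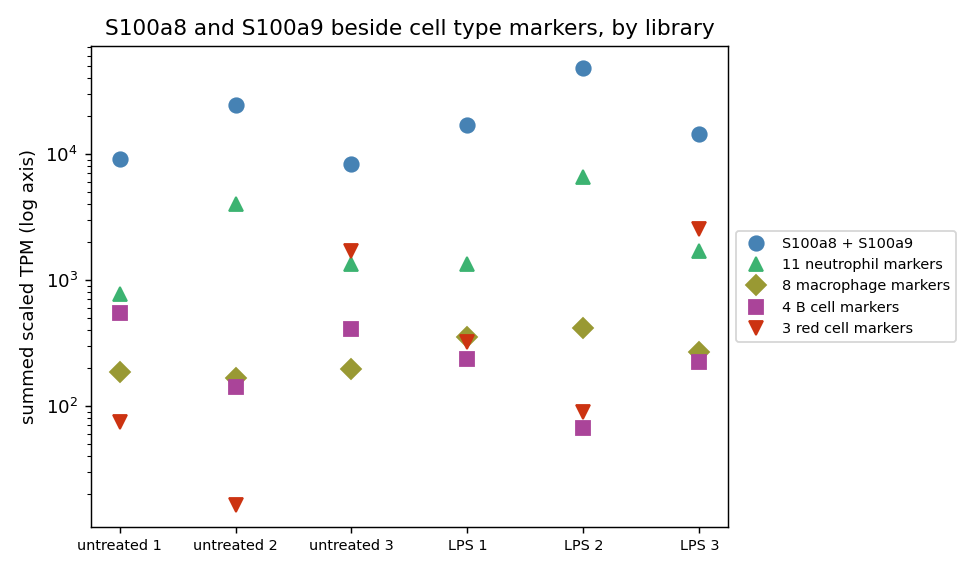
Summed scaled TPM in each library (log axis) of *S100a8* with *S100a9* and of the neutrophil (*Lcn2* included), macrophage, B cell and red cell markers. The neutrophil sum is highest and the B cell sum lowest in the library numbered 2 of each group.

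Genes that act with the S100 proteins were read from lists of receptors, binding partners and other EF-hand genes. Of 9 receptors and co-receptors, 6 were tested and 0 were called in either direction. *Ly96*, the MD-2 partner of TLR4, had 13.9, 66.0 and 15.0 scaled TPM without LPS and 33.0, 54.0 and 37.7 with LPS, and the groups overlapped. *Bsg*, a receptor of S100A9, had 12.9 to 17.2 without LPS and 16.7 to 19.4 with it. *Cd14* and *Ager*, which encodes RAGE, were not analysed here.

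Of 15 annexins and other binding partners, 7 were tested and 0 were called. *Anxa2*, the partner of S100A10, had 14.9, 295 and 34.4 without LPS and 38.0, 104 and 44.2 with LPS, highest in the libraries numbered 2, where *S100a10* was lowest. *Anxa5*, which binds phosphatidylserine, had 11.3, 5.20 and 13.3 without LPS and 41.2, 35.4 and 28.0 with LPS. Its groups did not overlap, with a log2 fold change of 1.78 (SE 0.41, limma adjusted p = 0.094) that stayed inside the fold limit. At the same protein-coding total the change was 1.31 (limma adjusted p = 0.269).

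Of 20 other EF-hand genes, 16 were tested, 1 was called higher and 0 lower. The called gene was *Gca*, grancalcin, an EF-hand protein of neutrophil granules, at 14.4, 10.9 and 29.0 without LPS and 93.5, 83.7 and 104 with LPS. Its log2 fold change was 2.42 (SE 0.41, limma adjusted p = 0.051) and the groups did not overlap, and at the same protein-coding total it was 1.93, inside the fold limit. *Pdcd6*, a penta-EF-hand protein of membrane repair named after its values were seen, had 22.6, 25.2 and 21.6 without LPS and 6.08, 5.47 and 6.44 with LPS. Its log2 fold change was -1.78 (SE 0.26, limma adjusted p = 0.038), inside the fold limit. At the same protein-coding total it was -2.24 (limma adjusted p = 0.026), beyond that limit, so the calls in this list depend on the scaling. The median log2 fold change of the 16 genes was 0.12.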

How the data were processed

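RNA was extracted from the 6 samples with the RNeasy mini kit, and strand-specific libraries were read as paired ends. The labels name a HiSeq sequencer and the series' design text a NextSeq one. The submitters' processing notes list fastp, STAR and kallisto and the builds GRCm39 and mm10, with no versions, and the study's methods add edgeR normalization. The authors deposited 1 table of values that were taken as TPM divided by 1 factor per library, although it is named as normalized counts. In untreated 3, 84.0% of 1128 full-precision values became whole at 6 decimals after multiplication by a whole number of at most 60, against 0.0% of 5090 in untreated 1. The values were read as averages over a gene's transcripts from untreated 3 alone. Read counts and depth per sample are unknown, so no count test was run and the spread between libraries is the only measure of precision.

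Groups came from the sample titles. Genes were annotated with GENCODE M39 on GRCm39, 35599 by name and 983 by identifier, with 2157 unmatched. The 23049 genes above 0 were fitted with limma 3.58.1 in R 4.3.3 (lmFit, eBayes with trend, two-sided, no covariates) on log2(value + 1), where fold changes of low genes are understated, and p-values were Benjamini-Hochberg adjusted over all of them. Calls used the study's limits, p below 0.01 before adjustment and a log2 change larger than 2 in size. The members' summed share and the *S100a9* to *S100a8* ratio were compared by exact permutation tests. Near-identical stretches were found with blastn 2.17.0. Tables and tests used scipy 1.17.1 and pandas 2.3.3 under Python 3.11.15, and figures matplotlib 3.10.9. The fit was tested on simulated data.

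The members, gene lists and marker lists were chosen with earlier results of these data known. All members were named. From each other list the called genes were named, up to 3 in each direction, or the 2 of highest mean where none was called. Of protein-coding neighbours within 250 kb of the outermost members, the 3 of highest mean were named. For *S100a8* and *S100a9* the 3 genes most alike were named, among genes with a mean of at least 100.

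Alternatives were other pseudocounts, a filter on the mean, protein-coding genes alone, other scalings, eBayes without a trend, the replicate number as a block, leaving out each library, and an adjusted p under 0.05. Leaving out both libraries numbered 2, and leaving *S100a8* and *S100a9* out of the protein-coding total, were added after seeing the data.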

Additional observations from a re-analysis of the deposited data

How the results depend on the processing

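With 3 libraries a group and unknown depth, no member's change could be told from the spread at a limma adjusted p under 0.05. This held as deposited and under every alternative, where the lowest was 0.0510, for *S100a11*. No member was called under any alternative. Over all genes, 690 were called, against 1349 with a pseudocount of 0.1, 297 with a pseudocount of 5, 337 among protein-coding genes alone and 424 at an adjusted p under 0.05 with no fold limit. The other alternatives stayed within 1.5 times of 690.

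*S100a4*, *S100a8*, *S100a9* and *S100a11* kept their direction under all alternatives, with log2 fold changes of 0.27 to 1.57, 0.53 to 1.63, 0.26 to 1.28 and -1.26 to -0.17, and limma adjusted p-values of 0.0510 to 0.760 for *S100a11*. The filter on the mean, protein-coding genes alone, eBayes without a trend and the replicate block leave a log2 fold change as it was. Those alternatives could not have reversed a direction. At the same protein-coding total *S100a6* was at -0.11 and *S100a10* at -0.26, and at -0.067 and -0.21 when *S100a8* and *S100a9* were left out of that total. *S100a10* was at -0.12 after centring on the median, and *S100a13* at -0.0012 with a pseudocount of 5. Without both libraries numbered 2, *S100a1* was at 0.16, *S100a3* at 0.32 and *S100a10* at -0.44. The cause of these reversals was not tested. Leaving out each library in turn gave -1.39 to 0.14 for *S100a1*, -0.31 to 0.21 for *S100a3*, -0.020 to 0.71 for *S100a6*, -0.81 to 1.18 for *S100a10* and -0.89 to 2.00 for *S100a13*. The difference in the members' summed share of the protein-coding value, 1.08 percentage points, ran from -2.31 without LPS 2 to 3.49 without untreated 2, and was also below 0 without untreated 1 (-0.0933) or untreated 3 (-0.159).

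The replicate numbers were not shown to pair the libraries. Deviations from the group means correlated at 0.0935, 0.199 and 0.0835 between libraries of the same number, and at -0.131 to 0.0535 between libraries of different numbers. Each LPS library correlated best with its own number, but values this low and this close do not show pairing. When the number entered the fit as a replicate block, 690 genes were called (387 higher, 303 lower) and no member was called. The limma adjusted p was then 0.134 for *S100a8*, 0.161 for *S100a9* and 0.181 for *S100a11*. Before adjustment the limma p was 0.0038, 0.0061 and 0.0088 in the same order. The intervals of the log2 fold change were 0.59 to 1.64, 0.36 to 1.20 and -1.21 to -0.31, and none spanned both signs. These genes were not called because their changes stayed inside the fold limit. The share of all genes with such unadjusted p-values under the block is not given here, so they do not set these members apart. The block is meaningful only if the numbers pair the libraries. Multiplying levels by the number of transcripts put *S100a4* at place 6 and *S100a13* at place 5.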

Other observations

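The members had few relatives at a measurable level. Of 15 further S100 and S100-fused genes, 13 were in the table, 8 were tested and 0 were called, and only *S100a7a* had a mean of at least 1. It had 0.480, 4.13 and 1.74 scaled TPM without LPS and 0.808, 0.630 and 0.0307 with LPS, and the groups overlapped. *Tchh*, trichohyalin of the hair follicle, was at 0.0531 to 0.320 without LPS and 0.222 to 1.21 with LPS. *S100a7l2*, *Hrnr*, *Flg2*, *Rptn* and *Crnn* were listed at 0 in all 6 libraries.

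Around the members, 82 protein-coding neighbours were annotated, 76 were in the table, 24 were tested and 0 were called. Of the 24, 5 had higher and 1 had lower LPS values without overlap, against 13.1% and 9.75% of all genes. The 5 include genes near 0, such as *Flg* (at most 0.0038 in any library) and *Sprr2a2* (at most 0.310). *Crtc2*, a coactivator of CREB, had 8.75, 2.23 and 7.83 without LPS and 22.2, 20.8 and 30.6 with LPS. Its log2 fold change was 1.95 (SE 0.50, limma adjusted p = 0.115), and 1.49 at the same protein-coding total (limma adjusted p = 0.310). *2210017I01Rik* had 35.5, 76.6 and 85.4 without LPS and 7.48, 33.7 and 15.1 with LPS, all lower than every untreated value. *Chtop*, a chromatin protein that overlaps *S100a13*, had 0.969, 8.65 and 6.22 without LPS and 9.40, 7.63 and 9.10 with LPS.

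Of 9 myeloid transcription factors, 5 were tested and *Nfkb1*, which encodes the p105 precursor of NF-κB, was the called one. It had 9.54, 6.03 and 6.99 without LPS and 45.6, 43.0 and 51.1 with LPS, a log2 fold change of 2.50 (SE 0.29, limma adjusted p = 0.022). At the same protein-coding total the change was 2.03 (limma adjusted p = 0.056). *Cebpb*, a factor of granulocyte gene expression named after its values were seen, had 600, 941 and 512 without LPS and 1423, 3142 and 1723 with LPS. Its groups did not overlap and its log2 fold change was 1.58 (SE 0.43, limma adjusted p = 0.128), and 1.07 at the same protein-coding total (limma adjusted p = 0.154).

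The genes closest in pattern to *S100a8* over the 6 libraries, among 530 genes with a mean of at least 100, were *Zfp36*, *F10* and *Ctsd*, with root-mean-square differences of 0.209, 0.319 and 0.330 between centred log2 values. Those closest to *S100a9* were *Ctsd* (0.204), *F10* (0.238) and *S100a6* (0.310). *S100a9* stood at place 4 for *S100a8*, and *S100a8* at place 6 for *S100a9* (0.384). For *S100a11*, added after its values were seen, the closest were *Dynlt1-ps1* (0.153), *Gm42860* (0.162) and *Ap2m1-ps* (0.168), of which the first and the last are annotated as pseudogenes.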
